A study of Mus musculus with 2 samples.

Results

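The transcripts of 6 genes, Nfat5, Hipk2, Zbed6, Cbl, Ubn2 and Birc6, were examined in the mandibular prominence, the facial swelling of the embryo that forms the lower jaw and the front of the tongue. The genes were taken by name. They had been picked because their level was higher in the mutant library, so the difference itself is a description here and was given no test. All 6 were found, of 30723 genes in the deposited tables, and they hold 28 of 59055 usable transcripts. The study has 1 control library and 1 library of Kif3a f/f ; Wnt1-Cre embryos, in which the motor gene Kif3a, needed to build cilia, is deleted by a Cre recombinase active in neural crest cells and their descendants. Each library is a pool of 10 embryos labelled E11.5, with no replicate. The background is taken as mixed CD1, which is not certain for the mutant pool. The genotype of the control is given only as control, without saying whether it carried Cre or the floxed allele. The naming of the mutant table gives day 11 and another sequencing run, and CD1 stands only in the naming of the control table. Stage, run and any difference of strain therefore cannot be told apart from genotype. The Wnt1 driver is not active in surface epithelium, myoblasts, vessel lining or blood, so cells of these kinds in the tissue keep Kif3a.

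The 6 proteins act in separate processes. NFAT5 is a Rel-type transcription factor that switches on osmoprotective genes when cells lose water. HIPK2 is a nuclear kinase that acts on p53, corepressors and homeodomain proteins. ZBED6, derived from a DNA transposon, represses Igf2. CBL is a RING ubiquitin ligase that sends activated receptor tyrosine kinases to degradation, and BIRC6 is a very large ubiquitin-conjugating enzyme that holds back caspases. UBN2 belongs to the HIRA complex, which deposits the histone variant H3.3.

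Levels are in FPKM, fragments scaled to transcript length and to library size, summed over the transcripts of a gene. The log2 ratio is log2((mutant FPKM + 1)/(control FPKM + 1)), which understates the difference of low genes, and intervals in parentheses are 95% counting intervals of the plain ratio. They rest on about 24659336 fragments in the control library and 24507310 in the mutant library, and do not cover the variation between embryos or preparations. A scaling that sets both libraries to the same summed FPKM, like TPM, moved the median log2 ratio of all genes from -0.13 to 0.39, so values near the median gene have no sure sign and are read against it. Differences in a bulk sample cannot tell more cells of a type from more RNA per cell.

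All 6 genes were more than 2-fold higher in the mutant library. Nfat5 had 6.09 FPKM in the control library against 17.97 in the mutant library, a ratio of 2.95 (2.79 to 3.12). Hipk2 stood at 6.53 and 18.5, a ratio of 2.83 (2.59 to 3.11). Zbed6 stood at 12.1 and 30.01, a ratio of 2.48 (2.34 to 2.63). Zbed6 thus had the highest level of the group in both libraries. Cbl stood at 5.47 and 14.05 FPKM, a ratio of 2.57 (2.36 to 2.80). Ubn2 stood at 5.13 and 12.6, a ratio of 2.45 (2.31 to 2.59). Birc6 stood at 8.90 and 19.7, a ratio of 2.21 (2.12 to 2.30). Each interval lies above 2. The interval of Nfat5 overlaps that of Hipk2, and with the length trend removed Hipk2 had the larger log2 ratio of this pair, 1.42 against 1.02.

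In log2 ratio the values were 1.42 for Nfat5, 1.37 for Hipk2, 1.24 for Zbed6, 1.22 for Cbl, 1.15 for Ubn2 and 1.06 for Birc6, with a median of 1.23. All 6 of 6 passed the filter of a mean FPKM of 1 or more and reached a log2 ratio of 1, the 2-fold mark, as did 94 of the 12259 genes over that filter (0.767%). They were chosen on this value, so nothing is read from the count. The median gene had -0.13. The group is not a complete top list: from the top of these 12259 genes, Nfat5 ranked 44 and Birc6 83. Genes above Birc6 that are not in the group include the histone methyltransferase gene Mll2, at 1.17, and Srcap, at 1.13. Lnpep, an aminopeptidase gene, had a value close to that of Birc6, 1.06 at 3.69 and 8.78 FPKM. The evidence behind each value was between about 595 fragments, for Hipk2 in the control, and about 7667, for Birc6 in the mutant. Kif3a, the deleted gene, had 11.46 FPKM in the control library against 5.39 in the mutant library.

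**Figure D1:**
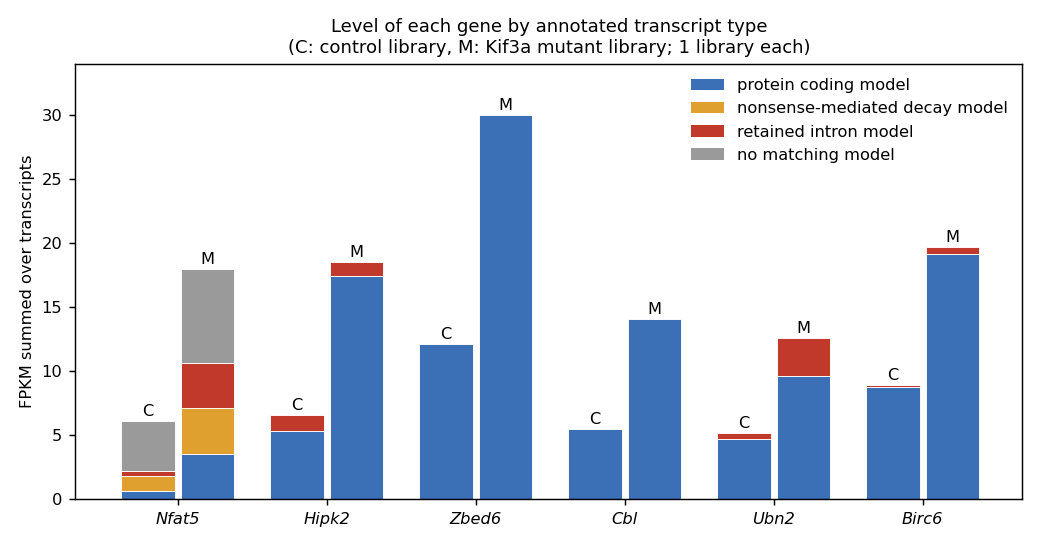
Bars give the FPKM of each gene in the control (C) and mutant (M) library, 1 library each, split by the GENCODE type of the transcript model that matches each deposited transcript. Every mutant bar is higher than its control bar, from 2.21 times for Birc6 to 2.95 times for Nfat5, and the retained intron part grows for Nfat5 and Ubn2 but not for Hipk2.

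Deposited transcripts were matched to GENCODE models of the same gene by their ends and length: 4 were identical, 22 had the length that the same exons with other ends would give, and 2, both of Nfat5, had no match. The match does not compare exons one by one. By these models 16 transcripts are protein coding, 9 retain an intron and 1 is a target of nonsense-mediated decay, the pathway that destroys messages with an early stop codon. Of the 28, 23 had a mean of at least 0.1 FPKM, and 22 of these were higher in the mutant. The exception was a transcript of Hipk2. With a mean of at least 1 FPKM there were 18, of which 9 reached a log2 ratio of 1, as did 3.15% of all transcripts at that level. All carried the status OK in both libraries. The software shares fragments between overlapping models, so a transcript listed near 0 can be the result of that sharing.

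Several of the splits rest on short coding segments, shown here because in the matched GENCODE models they alone separate transcripts of a gene inside the coding sequence. Capitals mark the segment that 1 transcript has and the other lacks, in the reading strand, with 12 flanking bases (15 for Ubn2) on each side. For Nfat5 the exon is shown from its first base and capitals mark its in-frame stop codon. Sequences are from GENCODE M21 on GRCm38.
Hipk2, chr6:38730996-38731076, minus strand, exon 8: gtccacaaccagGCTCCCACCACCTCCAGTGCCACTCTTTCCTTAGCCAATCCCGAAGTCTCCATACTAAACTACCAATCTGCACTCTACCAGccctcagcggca
Cbl, chr9:44164207-44164257, minus strand, exon 8: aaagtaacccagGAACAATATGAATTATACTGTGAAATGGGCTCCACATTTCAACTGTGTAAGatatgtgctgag
Cbl, chr9:44158977-44159108, minus strand, exon 10: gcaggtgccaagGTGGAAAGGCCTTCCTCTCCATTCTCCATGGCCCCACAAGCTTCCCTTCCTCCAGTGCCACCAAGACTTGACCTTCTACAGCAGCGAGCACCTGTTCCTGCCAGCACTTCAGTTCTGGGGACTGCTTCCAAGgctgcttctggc
Birc6, chr17:74615331-74615357, plus strand, exon 31: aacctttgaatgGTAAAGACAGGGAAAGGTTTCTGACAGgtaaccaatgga
Ubn2, chr6:38464044-38464049, plus strand, exon 6: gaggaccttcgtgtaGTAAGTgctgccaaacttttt
Nfat5, chr8:107338295-107338356, plus strand, exon 4: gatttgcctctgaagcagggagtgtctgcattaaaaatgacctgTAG

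The segments of Hipk2, Cbl, Birc6 and Ubn2 have 81, 51, 132, 27 and 6 bases, all multiples of 3, lengths that leave the reading frame unchanged. The exon of Nfat5 has 62 bases, which is no multiple of 3, and 44 of them are annotated as coding before the stop.

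Nfat5, on chromosome 8 from 107293470 to 107379517, has 8 deposited transcripts and showed the widest change in their shares. Its most abundant model, uc012gke.1 of 11465 bases, starts inside the gene at 107358634, runs to the 3′ end and matched no GENCODE transcript. It stood at 3.89 and 7.39 FPKM, and its share of the gene went from 63.9% to 41.1%. This model alone had a log2 ratio of 0.78, below 2-fold. The decay target uc012gkd.1 of 13443 bases, with the 62-base exon, stood at 1.22 and 3.65 FPKM and kept its share, 20.01% and 20.3%. The coding form uc009nhl.2 of 13381 bases, which differs from it by that exon, was listed near 0 for the control and at 2.004 FPKM for the mutant. The shorter coding form uc009nhm.2 of 4708 bases stood at 0.582 and 1.48 FPKM. A short model of 2123 bases, uc009nhk.2, was near 0 in both libraries.

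The retained intron models of Nfat5 made the largest relative difference. The model uc012gkc.1 of 5152 bases runs from the first exon of the gene into an intron and ends at 107329307, and was identical to its GENCODE model. Its level was 0.0312 FPKM in the control library against 1.28 in the mutant library, on about 4 and 185 fragments. A second, uc009nho.1 of 1637 bases, stood at 0.365 and 2.17 FPKM, on about 15 and 100 fragments. Together with another that was near 0 in both libraries, these models held 6.51% of the gene's FPKM in the control library against 19.2% in the mutant library. The matched coding models stood at 0.582 and 3.48 FPKM in sum.

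Ubn2, on chromosome 6 from 38433925 to 38524790, had the same kind of shift. Its most abundant transcript, uc009bke.2 of 14669 bases and without the 6-base segment, had 2.25 and 3.84 FPKM; its log2 ratio, 0.57, is below 2-fold. The form uc009bkh.2 of 14675 bases, with the segment, stood at 1.29 and 3.40. A shorter coding form, uc009bkf.1 of 5829 bases, stood at 1.12 and 2.33 FPKM. With only 6 bases to tell the long forms apart, the split between them rests on few fragments, whereas their sum does not. The coding models together stood at 4.66 and 9.57 FPKM, a ratio of 2.05. The retained intron models stood at 0.465 and 2.99 FPKM, a ratio of 6.43, and their share of the gene went from 9.08% to 23.8%. Of these, the model uc012ekc.1 of 15723 bases stood at 0.465 and 2.25 FPKM, and uc009bkg.1 of 1833 bases was listed near 0 in the control and at 0.742 FPKM in the mutant, on about 38 fragments. Without the retained intron models the log2 ratio of Ubn2 was 0.90, under the mark of 1 through the pseudocount, since the plain ratio of these models is the 2.05 above.

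Birc6, on chromosome 17 from 74528295 to 74703773, differed mainly through its full-length forms. The form uc008doe.1 of 16212 bases, with the 27-base segment, stood at 4.26 and 9.03 FPKM, and uc008dof.1 of 16185 bases, without it, at 3.92 and 7.27. The plain ratio was 2.12 for the first and 1.85 for the second, and the log2 ratios, which the pseudocount of 1 pulls down, were 0.93 and 0.75. A coding model, uc008dog.1 of 3084 bases, inside the gene stood at 0.537 and 2.82 FPKM, a ratio of 5.24 on about 42 and 242 fragments, and its share went from 6.03% to 14.3%. The 3 retained intron models were a small part, 1.95% and 2.78%.

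**Figure D2:**
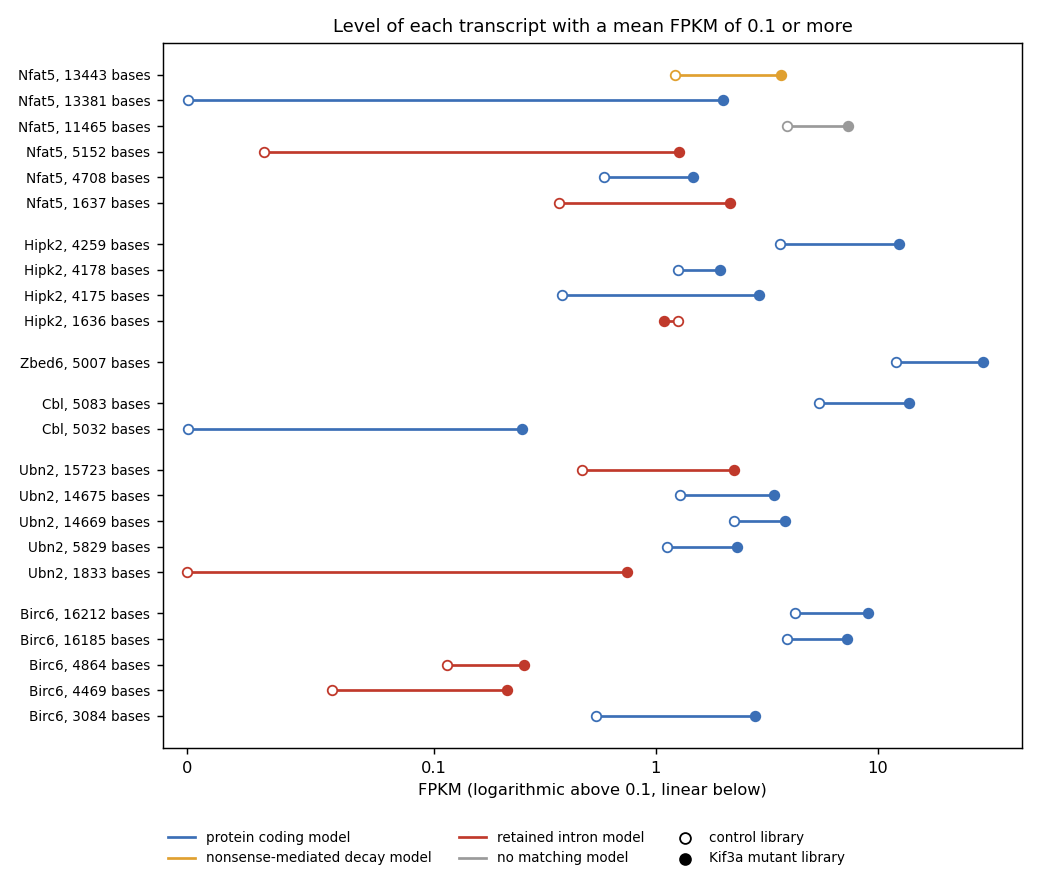
Each line joins the FPKM of 1 transcript in the control (open circle) and in the mutant (filled circle), for the 23 transcripts with a mean of 0.1 FPKM or more; the axis is logarithmic above 0.1 and linear below. Of the 23, 22 run to the right, and the longest lines include the Nfat5 models of 5152 and 13381 bases and the Ubn2 model of 1833 bases.

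Hipk2, on chromosome 6 from 38697840 to 38876190, went the other way in its intron model. The main transcript, uc009bkx.2 of 4259 bases and with the 81-base segment, stood at 3.64 and 12.5 FPKM, a ratio of 3.45, and its share went from 55.7% to 67.8%. The forms without the segment were unlike each other. The form uc009bkz.2 of 4178 bases stood at 1.26 and 1.96 FPKM, and uc009bky.2 of 4175 bases, which also lacks a 3-base segment at chr6:38721595-38721597, stood at 0.377 and 2.92. In sum the coding models stood at 5.28 and 17.4 FPKM, a ratio of 3.302. The retained intron model uc009blb.2 of 1636 bases stood at 1.26 and 1.09 FPKM, a ratio of 0.871, and its share fell by 13.3 percentage points.

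Cbl, on chromosome 9 from 44149262 to 44234046, was nearly a single transcript. The form uc009pce.1 of 5083 bases, with both the 51-base and the 132-base segment, held more than 98% of the gene in each library, at 5.47 and 13.8 FPKM. The form without the 51 bases was near 0 in the control and at 0.249 FPKM in the mutant, on about 35 fragments, and the form without the 132 bases was near 0 in both. The difference of Cbl is therefore one of level and not of share.

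Zbed6, on chromosome 1 from 133655879 to 133660885, has 1 transcript, uc007cqr.2 of 5007 bases, in a single exon, so no shift between transcripts can be seen. The gene sits on the minus strand inside the first intron of Zc3h11a, which encodes an RNA export factor and lies on the same strand; in the GENCODE model identical to its main transcript that intron runs from 133654033 to 133661236. Zc3h11a stood at 54.3 and 62.3 FPKM, a ratio of 1.15 (1.11 to 1.19) and a log2 ratio of 0.20. Its transcripts were unlike each other. Those matched to coding models stood at 32.7 and 28.6 FPKM in sum, a ratio of 0.874, while the retained intron model of 1306 bases stood at 5.001 and 9.14, a ratio of 1.83. Reads from unspliced RNA of the host intron cannot be told apart from Zbed6 messages in these tables, so the Zbed6 value is uncertain in that respect.

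Outside the 6 genes, retained intron models were also higher in the mutant library. Among transcripts identical to a GENCODE model and at 1 FPKM or above on average, 109 retained intron models had a median log2 ratio of 0.45, and 18 of them reached 2-fold (16.5%). For 1711 protein coding models the median was -0.12, and 30 reached it (1.75%). The median length was 2374 bases for retained intron and 3112 for coding models, and at 2000 to 4000 bases the medians were 0.47 and -0.15. Set against the other transcripts of the same gene, 70 of 91 retained intron models had the higher log2 ratio, with a median difference of 0.52, compared with 439 of 898 coding models and a median difference of -0.02. The part of this library difference in the values of Nfat5, Ubn2 and Zbed6 was not tested. Leaving out the matched retained intron models left 5 of the 6 genes at a log2 ratio of 1 or more, but this count was largely fixed in advance. Cbl and Zbed6 have no such model, so their values could not move. That of Hipk2 was lower in the mutant library, so the value of Hipk2 could only rise, to 1.55. Nfat5 went to 1.21, Birc6 to 1.05 and Ubn2 to 0.90. Host intron reads counted as Zbed6 stay in, so no conclusion on intron RNA is drawn.

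Noncoding RNAs listed as nuclear were unlike each other. Of 9 listed nuclear noncoding RNAs, 7 were measured and 6 of these lay above the median gene, with 2 at least 2-fold higher, against 0.767% of all genes. These were Malat1, an RNA of nuclear speckles, at 10.98 and 63.7 FPKM, and Xist, the RNA that coats the inactive X chromosome, at 31.6 and 84.2. The sex of the pooled embryos is not known here, and its part in the Xist value was not tested. With the length trend removed Xist, of 17918 bases, had 0.73 and Malat1 alone stayed above 2-fold. Meg3 stood at 103 and 128 FPKM. On the log2 scale Airn had 0.41 and H19 0.17, while Rian had -0.12, from 120.1 and 110.8 FPKM, and Mirg had -0.24. Neat1 stayed under the filter at 0.796 and 0.716. Kcnq1ot1 did so too, at 0.159 and 0.629 FPKM, a ratio of 3.96 (3.51 to 4.49). Of 74 measured ribosomal protein genes, whose short messages are mostly cytoplasmic, 1 lay above the median gene and the median log2 ratio was -0.38, or -0.11 with the length trend removed. The part of nuclear RNA in the values of the 6 genes was not tested.

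All 6 genes have long transcripts. Their most abundant transcripts have 4259 to 16212 bases. The median log2 ratio of all genes went from -0.24 at 1000 to 2000 bases to 0.02 at 4000 to 8000 bases, 0.27 at 8000 to 12000 and 0.62 among 64 genes over 12000 bases. Of 3252 genes over 4000 bases, 21 were at least 2-fold higher (0.646%). By length these were 14 of 2826 genes at 4000 to 8000 bases (0.495%), with Hipk2, Zbed6 and Cbl among the 14. At 8000 to 12000 bases they were 2 of 362 (0.552%), and 1 of these is Nfat5. Over 12000 bases they were 5 of 64 (7.81%), and Ubn2 and Birc6 are among these. A LOWESS curve, a smooth local regression of log2 ratio on log10 length, was therefore taken off.

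With this trend removed, Hipk2 had 1.42, Zbed6 1.24, Cbl 1.21 and Nfat5 1.02, and 126 of all genes were at least 2-fold higher (1.03%). Ubn2 had 0.61 and Birc6 0.46, so these 2 were under the 2-fold mark. The ranks that follow use the same ratio that chose the genes and are a description only. Among genes whose main transcript was within 20% of the same length, Nfat5 ranked 1 of 199 and Ubn2 1 of 69. Hipk2 ranked 4 of 2656, Zbed6 3 of 2122, Cbl 5 of 2045 and Birc6 3 of 43. The median of the genes ranked with Ubn2 was 0.57.

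**Figure D3:**
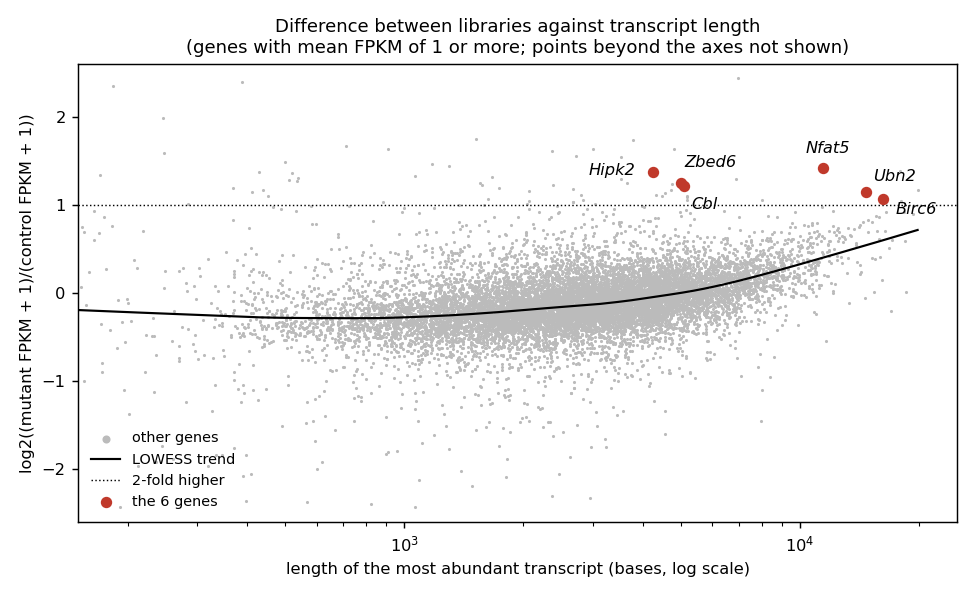
Each point is 1 gene averaging at least 1 FPKM; the x axis is the length of its most abundant transcript on a log scale and the y axis its log2 ratio, mutant over control. The 6 genes (red) all lie above the dotted 2-fold line, and the LOWESS curve rises towards Ubn2 and Birc6, which lie 0.61 and 0.46 above it.

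For Cbl and Hipk2 the deposited models are shorter than the longest annotated forms. The longest GENCODE transcript has 11372 bases for Cbl and 7684 for Hipk2, against 5083 and 4259 for the longest deposited models of these genes. For Nfat5 and Zbed6 the longest lengths were the same in both, 13443 and 5007 bases. For Ubn2 and Birc6 the deposited model was the longer, 15723 against 14644 bases and 16212 against 15768. When the trend was fitted on the longest GENCODE length, for the 10729 genes that have one, Cbl had 0.89 and fell under 2-fold, and Hipk2 had 1.23. Nfat5 then had 1.01 and Zbed6 1.28. Only Hipk2 and Zbed6 stayed at or above 2-fold under all 17 alternatives tried, with lowest values of 1.03 for both, at a pseudocount of 5.

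**Figure D4:**
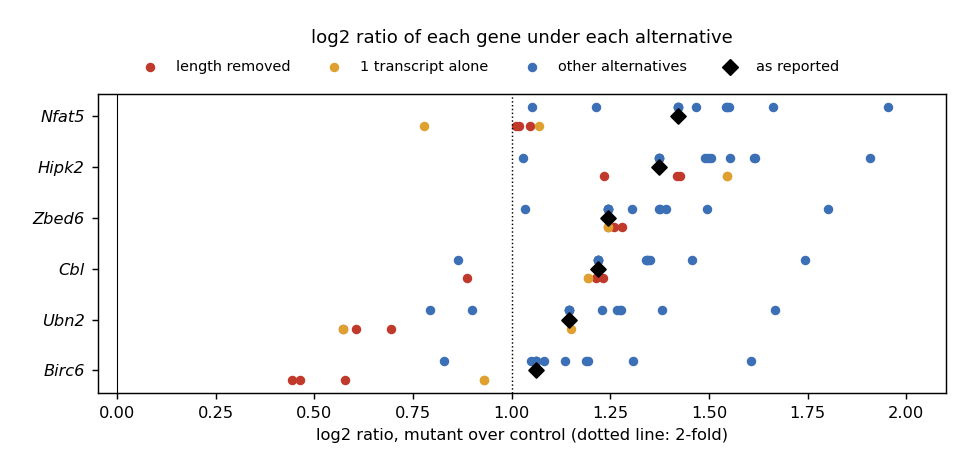
Points give the log2 ratio of each gene under 17 alternatives and the diamond the reported value; red points have the length trend removed, orange points use 1 transcript of the gene and blue points are all other settings. All points lie above 0, and Ubn2 and Birc6 drop to 0.57 and 0.44 at their lowest while Hipk2 and Zbed6 stay right of the dotted 2-fold line.

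Among genes within 20% of the length of each member, those nearest in log2 ratio over the 2 libraries were looked up. For Nfat5 the closest were Lama5, a laminin gene, at 0.98 and Akap9, a Golgi and centrosome scaffold gene, at 0.93. Akap9 and Mll1, a histone methyltransferase gene at 0.92, were nearest to Ubn2. For Birc6 they were Mdn1, a ribosome assembly ATPase gene, at 1.04 and again Mll1. The hyaluronan synthase gene Has1, at 1.30, was nearest to Hipk2; at 0.187 and 1.92 FPKM it passed the filter only through the mutant library. Srcap, a chromatin remodeller gene at 1.13, was among the 2 nearest to Zbed6 and to Cbl.

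None of the measured genes in 10 lists of relatives, partners and targets reached a log2 ratio of 1 or -1. Exceptions arose with TPM-like scaling, for Atrx, Herc1 and Ubr4, and with the most abundant transcript alone, for Mycbp2. Relatives of Nfat5 did not share its difference. Of 9 NFAT and Rel family genes 7 were measured, 2 lay above the median gene and the median log2 ratio was -0.26. Rela had -0.54, Relb -0.51, Nfatc1 -0.41 and Nfkb1 -0.26, and the most abundant, Nfatc4, stood at 63.9 and 58.7 FPKM. Osmotic response genes, which NFAT5 activates in stressed cells, had a median of 0.0005 over 6 measured of 14, with 5 above the median gene. The inositol transporter gene Slc5a3 had 0.29 and the taurine transporter gene Slc6a6 0.25. Slc38a2, an amino acid transporter gene, had -0.03 and the aldose reductase gene Akr1b3, at 89.2 and 76.5 FPKM, -0.22. Slc5a3 has a transcript of 10913 bases and had -0.09 with the length trend removed. Aqp2 was listed at 0 in both libraries.

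The kinases closest to HIPK2 lay slightly above the median gene. All 6 measured of 8 HIPK and DYRK genes did so, with a median log2 ratio of 0.08. Dyrk2 had 0.31, Hipk1 0.27, Dyrk1b 0.10, Dyrk3 -0.08 and Dyrk1a, the most abundant, stood at 18.5 and 19.3 FPKM. Hipk1, whose transcript has 8049 bases, had 0.06 once the trend was removed. The 12 genes for partners and regulators of HIPK2 had a median of -0.18, with 4 above the median gene. Daxx and the corepressor gene Ctbp1 each had -0.36, Siah2, a ligase that degrades HIPK2, -0.36, and Trp53 -0.28. Ctbp1 was the most abundant, at 125 and 97.4 FPKM.

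Igf2, the target that ZBED6 represses, lay below the median gene at -0.55, with 886 FPKM in the control library against 603 in the mutant library. In that list Zbed3 had -0.45 and Zbed4 0.04. The median of its 4 measured genes, of 5, was -0.21, with 2 above the median gene. Among CBL family and partner genes, 9 of 11 were measured, 7 lay above the median gene and the median was 0.01. Cd2ap, an adaptor that binds CBL, had 0.40, Grb2 -0.36 and the ubiquitin-conjugating enzyme gene Ube2d1 -0.23, while the close relative Cblb stood at 11.995 and 12.003 FPKM. The most abundant, Ube2d3, stood at 106 and 111. The 8 receptor tyrosine kinase genes whose products CBL ubiquitinates had a median of -0.15, with 3 above the median gene. Csf1r, a macrophage receptor gene, had -0.59, Pdgfrb -0.33, Met 0.30 and Fgfr1, the most abundant at 43.2 and 35.3 FPKM, -0.29.

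Of the 9 HIRA complex and H3.3 chaperone genes 5 lay above the median gene, with a median of -0.08. Atrx, a chromatin remodeller that deposits H3.3, had the highest value at 0.77, on a transcript of 10244 bases, and 0.44 with the trend removed. Asf1b had -0.46, H3f3a -0.39 and Daxx -0.36. H3f3a was the most abundant, at 1152 and 876 FPKM. Ubn1, the closest relative of Ubn2, had 0.17, from 21.5 and 24.4 FPKM. The 9 measured of 12 genes for inhibitors of apoptosis and their antagonists had a median of -0.17, with 4 above the median gene. Htra2 had -0.33 and Birc5, the most abundant at 126 and 103 FPKM, -0.29. Casp9 had -0.22 and Xiap 0.17.

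The very large ubiquitin ligase genes, most of them close to Birc6 in transcript length, were the list with the highest median. All 8 had log2 ratios above 0, as did 32.1% of all genes, and their median was 0.40. Herc1 had 0.81, Ubr4 0.62, Trip12 0.40 and Mycbp2 0.40, and the most abundant, Huwe1, stood at 55.3 and 69.8 FPKM. With the length trend removed the median was 0.06, close to that of all genes, and Herc1 had 0.25, Ubr4 0.03 and Mycbp2 -0.16. Herc2, with 15346 bases, had 0.01 as deposited and -0.56 with the trend removed. Birc6, at 0.46 on that scale, lay above all 8, which is a description only because Birc6 was chosen for its high ratio.

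**Figure D5:**
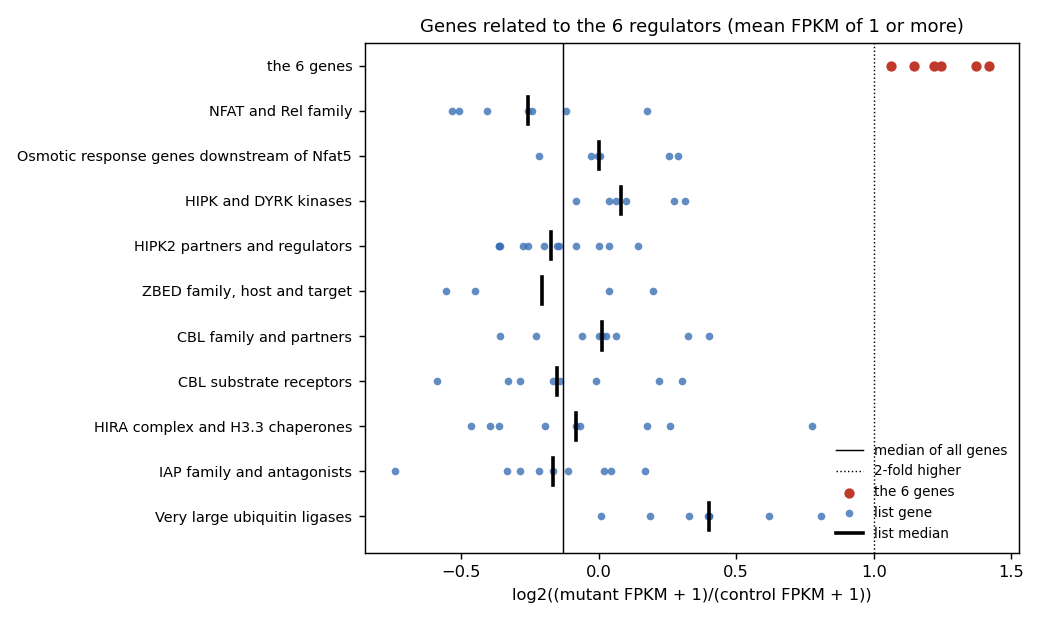
Each point is the log2 ratio of 1 measured gene, by list, with the 6 genes in the top row; short bars are list medians, the solid line the median of all genes (-0.13) and the dotted line the 2-fold mark. No list gene reaches the dotted line, and Herc1 at 0.81 and Atrx at 0.77 come nearest.

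Windows of 300 bases around the start sites (250 before, 50 after; RefSeq, GRCm38.p6) were available for all 6 genes, with 2 for Hipk2. They were searched on both strands for letters of 5 factors. The GLI motif TGGGTGGTC, read by the factors that cilia process, was in none of the 7 windows and in 0.253% of 32851 windows of all genes. The NFAT5 core TGGAAA was in none either, and in 21.4% of all. ZBED6 letters GCTCGC were in 3 of 7, those of Cbl, Ubn2 and the upstream start of Hipk2, against 14.1% of all. ETS letters CCGGAAG were in 2, Nfat5 and Zbed6, against 8.86%, and the palindromic NRF1 motif in 1, Ubn2, against 0.971%. The windows with ZBED6 letters hold 61.3% to 80.7% G and C, against a median of 52.7%, and these letters are themselves rich in both. A match is a description of letters and not a bound site.

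Of these windows 3 are shown: those with the most matches, Hipk2 and Ubn2, and that of Zbed6, which lies wholly inside the first intron of its host. Capitals mark the matches.
Hipk2, chr6:38876141-38876440, minus strand: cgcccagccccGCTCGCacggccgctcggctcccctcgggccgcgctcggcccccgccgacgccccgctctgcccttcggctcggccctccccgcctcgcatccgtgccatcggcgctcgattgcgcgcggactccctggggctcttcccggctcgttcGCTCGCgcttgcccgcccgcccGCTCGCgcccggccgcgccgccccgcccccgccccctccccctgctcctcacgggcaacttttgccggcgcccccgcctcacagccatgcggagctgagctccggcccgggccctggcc
Ubn2, chr6:38433675-38433974, plus strand: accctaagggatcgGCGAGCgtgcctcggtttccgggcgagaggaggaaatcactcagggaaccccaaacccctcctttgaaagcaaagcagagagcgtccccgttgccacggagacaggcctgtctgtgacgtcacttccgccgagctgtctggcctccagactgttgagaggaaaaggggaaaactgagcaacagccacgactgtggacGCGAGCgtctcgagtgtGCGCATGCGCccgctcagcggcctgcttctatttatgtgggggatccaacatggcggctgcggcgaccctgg
Zbed6, chr1:133660836-133661135, minus strand: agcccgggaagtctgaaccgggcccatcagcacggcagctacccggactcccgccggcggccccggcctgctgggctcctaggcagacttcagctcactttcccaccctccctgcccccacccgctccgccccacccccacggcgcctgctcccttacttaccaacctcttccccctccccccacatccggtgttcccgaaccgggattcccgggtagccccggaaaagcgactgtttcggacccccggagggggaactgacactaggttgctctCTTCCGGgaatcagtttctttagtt

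The cell makeup of the pools also differed. All 12 mandibular mesenchyme markers were measured, at 961 and 865 FPKM in sum. Markers of neighbouring tissues of the face were not compared, so the tissue is taken from its label. The 7 measured erythroid markers were each at least 2-fold lower in the mutant, at 25886 and 7310 FPKM in sum, as were all 5 measured of 6 muscle markers, whose list summed to 35.6 and 8.30; with TPM-like scaling 4 and 3 of these reached that mark. In all genes 1.36% were that much lower. Oral epithelial markers lay above the median gene in 8 of 10, at 170 and 200.3 FPKM in sum. Endothelial markers summed to 59.7 and 39.9 FPKM, macrophage markers to 17.99 and 9.88, neuronal markers to 18.4 and 19.5 and glial markers to 9.54 and 6.69; no listed marker present in the tables was at 0. Their part in the values of the 6 genes was not tested.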

How the data were processed

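RNA of 1 control pool and 1 Kif3a mutant pool was measured. FPKM and coverage signal per transcript are as deposited by the authors, per the file headers; the tables' naming gives Cufflinks. The submitters' processing notes name mm9, but 72.1% of 45475 transcripts with a shared symbol had a start or end identical to GENCODE M21 on GRCm38, which is used here; starts were raised by 1 base to count from 1. The sources used here do not give the aligner, its version or the strand setting. In each table, 65 of 59120 lines with displaced columns were left out.

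FPKM was summed per gene symbol, filtered at a mean of 1 and compared with a pseudocount of 1. Without replicates there is no test or p-value. Fragments were approximated as coverage times length over 156 (control) and 153 (mutant) bases, the median of values between 80 and 220 in genes with 1 transcript over 1500 bases long. Intervals are exact Clopper-Pearson, 95%. LOWESS (statsmodels 0.14.6, fraction 0.3) removed the length trend. Calculations used Python 3.11.15, pandas 2.3.3 and SciPy 1.17.1, tested on simulated data.

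The members and lists were chosen with earlier results of these data known. Named genes were the members, up to 4 list genes with the largest absolute log2 ratio and the most abundant, Zc3h11a, Kif3a, Malat1, Mll2, Srcap, and the 2 genes nearest each member in log2 ratio among those within 20% of its length. Lnpep, Xist, Meg3, Airn, H19, Kcnq1ot1, Rian, Mirg, Neat1, Aqp2, Cblb, Ubn1, Xiap, Herc2 and Zbed4 were named, where outside that rule, after their values were seen. Some genes that the rule names are not reported here.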

Additional observations from a re-analysis of the deposited data

How the results depend on the processing

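All 6 genes had log2 ratios above 0 under all 17 alternatives, 15 planned and 2 chosen after seeing the data (the GENCODE length trend and leaving out retained intron models). Their count at 2-fold or more was 3 with a pseudocount of 5, with the most abundant transcript alone and with the GENCODE length trend removed, and 4 to 6 under the others. Lowest and highest values were 0.78 and 1.95 for Nfat5, 1.03 and 1.91 for Hipk2, 1.03 and 1.80 for Zbed6, 0.86 and 1.74 for Cbl, 0.57 and 1.67 for Ubn2, and 0.44 and 1.61 for Birc6. The median of the 6 was 0.95 with a pseudocount of 5, 1.36 both centred on the median gene and with 75th percentile scaling, 1.77 with TPM-like scaling, 1.48 with that scaling without transcripts under 200 bases, 1.12 with the LOWESS trend removed, 1.06 with the most abundant transcript alone, 1.37 with coverage times length and 0.95 with the GENCODE length trend removed.

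Of all genes, 94 were higher and 167 lower by 2-fold. These counts were 179 and 312 with a pseudocount of 0.1, 36 and 56 with a pseudocount of 5, 54 and 88 at a mean FPKM of 5 or more, 465 and 70 with TPM-like scaling, which moved the median gene from -0.13 to 0.39, and 159 and 110 with that scaling without transcripts under 200 bases. They were 132 and 129 centred on the median gene, 125 and 137 with 75th percentile scaling, 126 and 109 with the LOWESS trend removed and 123 and 117 with the median of genes of like length subtracted. With the longest transcript alone 191 were higher, and without transcripts under 500 bases 55. The share of the main Birc6 transcript, -2.01 percentage points in mutant minus control, was 2.04 when computed from coverage times length. That measure gives long transcripts more weight than FPKM does. By FPKM the Birc6 model of 3084 bases went from 6.03% to 14.3% of the gene. In fragments it had about 42 of 3433 in the control library and 242 of 7667 in the mutant library. No further cause was tested. Shares of Nfat5, Hipk2, Cbl and Ubn2 kept their direction. Fragments were approximated from coverage, so intervals are approximate and low transcripts rest on few fragments. No paired analysis was possible because each group has 1 library.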
